A study of Mus musculus with 6 samples.

Results

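Cholesterol synthesis and sterol regulation were described through 27 genes in the aortas of Apoe-/- mice treated with erythropoietin (EPO) or saline. The genes were chosen as a list by function, with earlier results of these data known. They were 7 enzymes of the mevalonate steps and 11 enzymes from squalene synthase to cholesterol. The others were 5 genes of the SREBP system that controls these enzymes, and 4 genes of sterol uptake and transport inside the cell. All 27 were found among the 47643 genes of the count table, and all 27 passed the filter on low counts that left 16522 genes for testing. Every mouse, controls included, carried the Apoe-/- genotype, a loss of the lipid-carrying apolipoprotein E that raises plasma cholesterol. The 3 EPO libraries came from mice injected intraperitoneally with 5000 IU per kg of recombinant human EPO a day, and the 3 Vehicle libraries from mice injected with saline, both over 4 weeks. The tissue was the entire aorta, so each library mixes the cells of the wall with whatever fat and other tissue stayed attached. The labels give neither the age nor the sex of the mice, and do not say whether each library came from its own animal, so p-values measure the spread between libraries, which may be technical.

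Cells make cholesterol from acetyl-CoA through mevalonate, isoprenoids, squalene and lanosterol, a chain of enzymes in the cytosol, endoplasmic reticulum and peroxisomes. When sterols in the endoplasmic reticulum run low, the escort protein SCAP carries SREBP transcription factors to the Golgi, where they are cut and released to switch on the genes of synthesis and uptake. When sterols are plentiful, INSIG proteins hold SCAP back and the genes are turned down. Cholesterol that arrives in lipoproteins is freed in lysosomes and passed out of them by NPC2 and NPC1, a route used heavily by the lipid-loaded macrophages of atherosclerotic arteries.

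Total counts ran from 23278649 to 27904322 in the Vehicle libraries and from 28798632 to 38502430 in the EPO libraries, with EPO 1 the deepest. The 27 genes took between 0.125% and 0.166% of a library's counts, the highest share in EPO 1. Over all tested genes, log2 CPM (counts scaled to a common library total) correlated at 0.963 to 0.983 between libraries of a group and at 0.914 to 0.950 between libraries of different groups, as a description across genes, which are not independent replicates. Apoe itself had 176, 516 and 494 counts in Vehicle and 1385, 335 and 463 in EPO, and did not differ between groups (log2 fold change 0.51 ± 0.52 SE, edgeR adjusted p = 0.512). A knockout allele can still be transcribed in part, so these counts do not check the genotype.

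Of the 18 synthesis genes, 6 fell in the EPO aortas and 12 did not pass, while 1 of the 4 uptake and transport genes rose. Of the 27 genes, 8 were called lower at an edgeR adjusted p under 0.05: Acat2, Pmvk, Fdft1, Lss, Msmo1, Sc5d, Insig1 and Insig2. Only Npc1 was called higher, and 18 did not pass. The genes called lower made up 29.6% of the 27, against 10.1% of all tested genes called lower. The excess was not seen without Vehicle 1, where the shares were 3.7% and 4.10%, and was small without Vehicle 2 (7.41% and 5.59%) or EPO 2 (7.41% and 5.56%). The gene called higher made up 3.7%, against 12.9% of all tested genes called higher, and genes called in either direction made up 33.3%, against 23.0% of all tested genes. Fold changes of the 8 genes lay between 1.43-fold and 2.20-fold lower. The median log2 fold change was -0.30 over the 27 genes and 0.01 over all tested genes, and 18 of the 27 (66.7%) had a negative value against 49.1% of all genes. With 3 Vehicle libraries against 3 EPO libraries, the libraries did not overlap between groups for 15 genes, 12 lower in EPO (44.4%, against 21.0% of all tested genes) and 3 higher (11.1%, against 22.9%). In either direction the libraries of 43.8% of all tested genes did not overlap. These shares describe the list beside all genes and are no test of it.

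**Figure D1:**
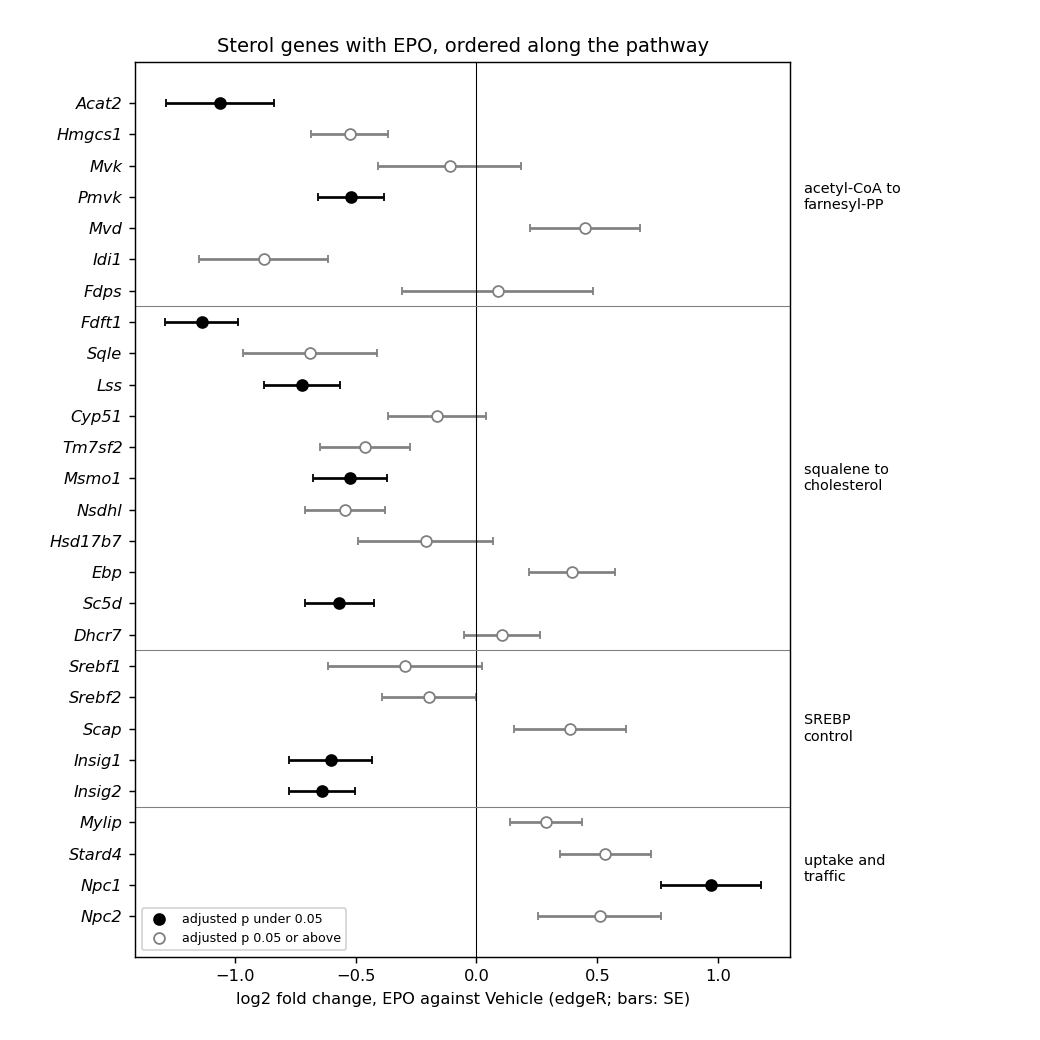
Log2 fold change of EPO against Vehicle (horizontal axis) for each of the 27 sterol genes (vertical axis, ordered by role), with bars of 1 SE from the edgeR fit over 3 libraries per group. Filled black points are the 9 genes with an adjusted p under 0.05 and open grey points did not pass. The lowest value is Fdft1 at -1.14 and the highest Npc1 at 0.97.

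The 18 synthesis enzymes had no member called higher and 6 called lower (33.3%, against 10.1% of all tested genes). For 10 of them the libraries were all lower in EPO than in Vehicle (55.6%, against 21.0%). Their median log2 fold change was -0.52, and 14 of 18 had a negative value (77.8%, against 49.1%). Of the 9 genes of control and transport, 1 was called higher (11.1%, near the 12.9% of all tested genes) and 2 lower (22.2%, against 10.1%). In single libraries, the median deviation of the 27 genes from their Vehicle mean on the log2 scale was -0.53 in EPO 1, -0.38 in EPO 2 and -0.38 in EPO 3, so all 3 EPO libraries lay on the same side. EPO 1 held the highest value for 7 genes and the lowest for 10, and it was also the library most often highest (25.9%) or lowest (28.7%) over all tested genes. Vehicle 1 held the highest value for more of the 27, 10 genes, and the lowest for 6. Over all tested genes it was highest for 18.9% and lowest for 19.2%.

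**Figure D2:**
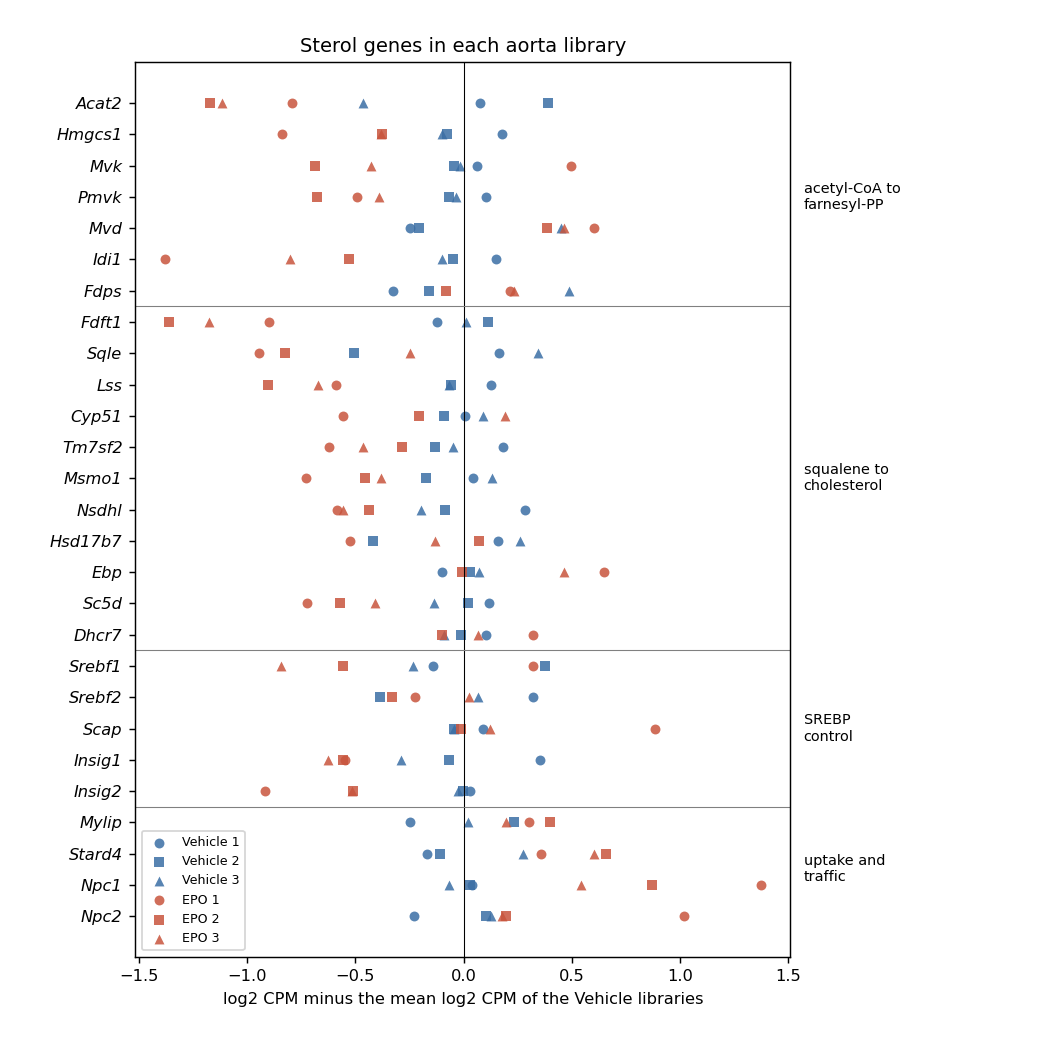
Deviation of log2 CPM from the Vehicle mean (horizontal axis) for each of the 27 sterol genes (vertical axis, ordered by role), with 1 point per library, 3 Vehicle in blue and 3 EPO in red. Most synthesis genes have their red points left of the blue ones, and for Npc1, Npc2 and Stard4 the red points lie to the right.

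The start regions of these genes are shown because SREBP factors are known to bind a sterol element beside a CCAAT box, the site of the factor NF-Y. Of the 27 genes, 22 had RefSeq windows (build GRCm38.p6) of 250 bases before and 50 after the start, 30 windows in all. Each was searched on both strands for CCAAT, which reads ATTGG on the other strand, and for TCANNCCAC, a simple form of the sterol element, with N any base. CCAAT occurred in 20 of the 22 genes (90.9%), against 41.1% of all genes with windows, and in 70% of the 30 windows against 37.4% of all windows of the same length. TCANNCCAC occurred in 2 of the 22 genes (9.09%), against 4.78% of all genes with windows. The 2 genes were Hmgcs1 and Mylip, and the motifs overlapped each other in 0 of the windows of the 27 genes and in 13 of all windows. Acat2 and Scap held neither motif. Of the 8 genes called lower, 7 had a window and 6 of these held CCAAT, against 14 of the 15 genes with a window that did not pass. A match describes the letters only. Printed below are the stretches just before a RefSeq start of both genes that hold the longer motif and of 4 genes called lower. All 4 of these hold CCAAT, and Acat2, called lower without it, is not printed. Insig2 had 3 windows, of which the first is printed and the others held neither motif. The sources of starts and gene coordinates differ. The Lss stretch therefore reaches into the gene as given further below, and the Msmo1 stretch lies wholly within its gene as given there. Each is written 5′ to 3′ in the direction of the gene, with capitals marking CCAAT, its complement ATTGG or the TCANNCCAC match.
Hmgcs1, chr13:119690101-119690350, plus strand: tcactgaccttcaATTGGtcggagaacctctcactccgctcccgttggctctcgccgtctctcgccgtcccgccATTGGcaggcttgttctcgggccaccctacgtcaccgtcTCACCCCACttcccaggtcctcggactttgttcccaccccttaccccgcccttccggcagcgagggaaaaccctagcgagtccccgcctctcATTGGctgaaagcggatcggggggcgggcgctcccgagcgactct
Mylip, chr13:45389542-45389741, plus strand: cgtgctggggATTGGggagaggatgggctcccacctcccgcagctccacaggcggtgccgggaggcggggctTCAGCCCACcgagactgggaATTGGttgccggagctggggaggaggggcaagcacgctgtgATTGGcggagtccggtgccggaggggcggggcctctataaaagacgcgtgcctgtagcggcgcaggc
Insig2, chr1:121332590-121332739, minus strand: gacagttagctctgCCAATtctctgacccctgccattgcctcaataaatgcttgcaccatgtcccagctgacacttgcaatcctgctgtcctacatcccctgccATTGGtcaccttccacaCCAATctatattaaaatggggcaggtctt
Msmo1, chr8:64733579-64733748, minus strand: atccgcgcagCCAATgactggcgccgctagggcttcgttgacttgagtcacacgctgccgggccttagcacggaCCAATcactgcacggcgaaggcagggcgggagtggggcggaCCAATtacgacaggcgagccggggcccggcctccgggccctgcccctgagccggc
Lss, chr10:76531505-76531604, plus strand: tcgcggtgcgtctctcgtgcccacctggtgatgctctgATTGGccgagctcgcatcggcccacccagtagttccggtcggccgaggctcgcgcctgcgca
Sc5d, chr9:42264301-42264400, minus strand: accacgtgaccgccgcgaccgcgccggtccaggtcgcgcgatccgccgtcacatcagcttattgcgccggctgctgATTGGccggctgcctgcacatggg

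Of the 7 mevalonate genes, 2 were called lower, Acat2 and Pmvk, and the libraries of 2 more, Hmgcs1 and Idi1, lay all below Vehicle without passing the test. Acat2 (ENSMUSG00000023832, GRCm38 chr17:12942890-12960747, minus strand) encodes the cytosolic thiolase that joins acetyl-CoA units at the entry of the pathway. It stood at 55.4, 69.0 and 38.2 CPM in Vehicle and 30.3, 23.3 and 24.3 CPM in EPO, a fall by 1.06 ± 0.22 (SE) on the log2 scale (edgeR adjusted p = 0.0157). Every EPO library lay below every Vehicle library, and the Vehicle libraries were spread widely, with a mean of 54.2 ± 15.4 CPM (SD, n = 3) against 26.0 ± 3.81 CPM (SD, n = 3) in EPO. The call was lost without Vehicle 1 (edgeR adjusted p = 0.0539) and without EPO 2 (0.0528). Acat2 shared 39.1% of its 50-base stretches with Acat3 and Tcp1, so its counts are uncertain where such reads were assigned. Acat3 had 43, 51 and 69 counts in Vehicle and 53, 46 and 73 in EPO, below the 687 to 1775 of Acat2. Tcp1 had 3154, 3739 and 4016 counts in Vehicle and 3778, 3868 and 4554 in EPO, above Acat2, and did not pass (log2 fold change -0.17, edgeR adjusted p = 0.395), with all EPO libraries lower in CPM.

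Pmvk (ENSMUSG00000027952, chr3:89454541-89469013, plus strand), the kinase that adds the second phosphate to mevalonate, stood at 21.4, 19.0 and 19.4 CPM in Vehicle and 14.1, 12.4 and 15.2 CPM in EPO. The groups did not overlap, with means of 19.9 ± 1.30 and 13.9 ± 1.38 CPM (SD, n = 3 each), and the log2 fold change was -0.52 ± 0.14 SE (edgeR adjusted p = 0.0323). The call was kept without EPO 1 and lost on leaving out any of the other 5 libraries, with an edgeR adjusted p of up to 0.110. Hmgcs1, which makes HMG-CoA, stood at 81.2, 68.0 and 66.9 CPM in Vehicle and 40.0, 55.1 and 55.0 CPM in EPO. Its groups did not overlap, but its log2 fold change of -0.53 ± 0.16 SE did not pass (edgeR adjusted p = 0.0527). Idi1, the isomerase of isopentenyl diphosphate, was at 6.56, 5.72 and 5.52 CPM in Vehicle and 2.23, 4.07 and 3.37 CPM in EPO, with a log2 fold change of -0.88 ± 0.27 SE that did not pass either (edgeR adjusted p = 0.0508). All 3 EPO libraries of Idi1 lay below all 3 Vehicle libraries. Idi1 shared 25.3% and Hmgcs1 11.6% of their 50-base stretches with other annotated genes.

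The remaining mevalonate genes did not pass, and their libraries overlapped between groups. Mvk, mevalonate kinase, was at 18.6, 17.3 and 17.6 CPM in Vehicle and 25.2, 11.0 and 13.2 CPM in EPO, so EPO 1 lay above and the other EPO libraries below all Vehicle libraries. Its log2 fold change was -0.11 over all libraries (edgeR adjusted p = 0.818) and -0.56 without EPO 1 (0.0283). Mvd, the decarboxylase that makes isopentenyl diphosphate, had the opposite sign to most of the chain, with a log2 fold change of 0.45 ± 0.23 SE that did not pass (edgeR adjusted p = 0.194). Fdps, farnesyl diphosphate synthase, was barely counted, with 33 counts over the Vehicle libraries and 44 over the EPO libraries. It shared 26.2% of its 50-base stretches with a neighbouring gene model and pseudogenes, and a gene used by every cell is listed near 0 here, so its log2 fold change of 0.09 ± 0.40 SE (edgeR adjusted p = 0.898) says little about its RNA.

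Of the 11 genes from squalene synthase onward, 4 were called lower and 0 higher, and their log2 fold changes had a median of -0.52. Fdft1 (ENSMUSG00000021273, chr14:63145150-63179578, minus strand) is squalene synthase, the first enzyme committed to sterols. It stood at 37.8, 44.4 and 41.4 CPM in Vehicle and 22.0, 16.0 and 18.2 CPM in EPO. The groups lay far apart, with means of 41.2 ± 3.30 and 18.7 ± 3.06 CPM (SD, n = 3 each), and the fall by 1.14 ± 0.15 (SE) on the log2 scale, or 2.20-fold, was the largest of the 27 genes (edgeR adjusted p = 0.00355). Fdft1 was the only one of the 9 called genes that passed in all 14 alternative settings. Its edgeR adjusted p was at most 0.0181 with 1 library left out, and 0.0200 with EPO 3 as the only EPO library, a fit whose spread comes from the Vehicle libraries alone. Fdft1 overlaps the exons of Ctsb on the opposite strand and shared 26.5% of its 50-base stretches with it and the pseudogene Gm6781, so without a stated strand setting its counts are uncertain. Ctsb, a lysosomal protease, had far higher counts, with means of 2820 ± 455 and 4254 ± 1909 CPM in Vehicle and EPO (SD, n = 3 each), and did not pass (log2 fold change 0.59, edgeR adjusted p = 0.231). How reads from the overlap were assigned was not tested.

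Lss (ENSMUSG00000033105, chr10:76531588-76557138, plus strand), which closes the rings of lanosterol, was at 15.3, 13.4 and 13.3 CPM in Vehicle and 9.26, 7.43 and 8.75 CPM in EPO. The groups did not overlap, and the fall was 1.65-fold (log2 fold change -0.72 ± 0.16 SE, edgeR adjusted p = 0.0177). The call of Lss was lost without Vehicle 1 (edgeR adjusted p = 0.0700), Vehicle 2 (0.0501) or EPO 2 (0.0528). Sc5d (ENSMUSG00000032018, chr9:42251595-42264256, minus strand), the desaturase that makes 7-dehydrocholesterol, was at 22.7, 21.2 and 19.0 CPM in Vehicle and 12.7, 14.1 and 15.7 CPM in EPO. Its groups did not overlap either (log2 fold change -0.57 ± 0.14 SE, edgeR adjusted p = 0.0275), and the call was lost without any 1 of Vehicle 1, Vehicle 2, Vehicle 3 or EPO 2, with an adjusted p of up to 0.101. Msmo1 (ENSMUSG00000031604, chr8:64718139-64733792, minus strand), the oxidase of the sterol 4-methyl groups, was at 20.6, 17.7 and 21.8 CPM in Vehicle and 12.0, 14.5 and 15.3 CPM in EPO. The groups of Msmo1 did not overlap, but its call was the least firm (log2 fold change -0.52 ± 0.15 SE, edgeR adjusted p = 0.0465), since leaving out any 1 library raised the adjusted p to between 0.0572 and 0.144.

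Nsdhl, the partner of Msmo1 in demethylation, was at 21.4, 16.5 and 15.3 CPM in Vehicle and 11.7, 12.9 and 11.9 CPM in EPO. All its EPO libraries were lower, with a log2 fold change of -0.54 ± 0.17 SE that did not pass (edgeR adjusted p = 0.0525). Tm7sf2, a sterol reductase, showed the same order of groups at a log2 fold change of -0.46 ± 0.19 SE (edgeR adjusted p = 0.114). Sqle, squalene epoxidase, was at 16.8, 10.5 and 19.0 CPM in Vehicle and 7.75, 8.42 and 12.6 CPM in EPO, and its groups overlapped, since EPO 3 exceeded Vehicle 2 (log2 fold change -0.69 ± 0.28 SE, edgeR adjusted p = 0.115). The 2 steps on either side of Sqle, Fdft1 and Lss, were the ones with the smallest adjusted p of this arm. Cyp51 (log2 fold change -0.16, edgeR adjusted p = 0.603), the lanosterol demethylase, and Hsd17b7 (-0.21, 0.626), a sterol ketoreductase, had small negative values with overlapping groups. Ebp (0.39, edgeR adjusted p = 0.152), the sterol isomerase, and Dhcr7 (0.11, 0.660), the last reductase, had positive values that did not pass. Ebp stood at 38.5 CPM in EPO 1 and 33.8 CPM in EPO 3, above the Vehicle range of 22.9 to 25.7 CPM, but at 24.4 CPM in EPO 2.

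Among the 5 genes of the SREBP system, both INSIG genes were called lower, while the genes of the transcription factors and their escort did not pass. Insig2 (ENSMUSG00000003721, chr1:121304353-121332589, minus strand) was tight in Vehicle at 71.2, 69.5 and 68.5 CPM and stood at 36.8, 48.8 and 48.7 CPM in EPO. The groups lay apart, with means of 69.7 ± 1.38 and 44.8 ± 6.89 CPM (SD, n = 3 each), a log2 fold change of -0.64 ± 0.14 SE (edgeR adjusted p = 0.0167). The Insig2 call was lost without Vehicle 1 (edgeR adjusted p = 0.0654) or Vehicle 2 (0.0564). Insig1 (ENSMUSG00000045294, chr5:28071363-28078662, plus strand), itself a known SREBP target, was at 67.9, 50.7 and 43.5 CPM in Vehicle and 36.3, 36.0 and 34.4 CPM in EPO. Its EPO libraries were nearly equal and all below Vehicle (log2 fold change -0.60 ± 0.17 SE, edgeR adjusted p = 0.0411), and the call held without Vehicle 3 but not without any 1 of the other 5 libraries, with an adjusted p of up to 0.103. The log2 ratio of Insig1 to Insig2 was -0.39 ± 0.30 in Vehicle and -0.32 ± 0.26 in EPO (SD, n = 3 each), a difference of 0.07 within the spread (exact permutation test, two-sided, p = 0.6, adjusted over 3 ratios 0.8).

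Srebf1, whose proteins favour fatty acid genes, was at 247, 354 and 232 CPM in Vehicle and 341, 185 and 152 CPM in EPO. EPO 1 lay within the Vehicle range and the other EPO libraries below it. The log2 fold change was -0.30 ± 0.32 SE (edgeR adjusted p = 0.538), and -0.73 without EPO 1 (0.0525). Srebf2, the factor of the sterol genes, was at 98.8, 60.5 and 82.9 CPM in Vehicle and 67.8, 62.8 and 80.6 CPM in EPO, with fully overlapping groups (log2 fold change -0.20 ± 0.19 SE, edgeR adjusted p = 0.499). Scap was at 58.0, 52.9 and 52.8 CPM in Vehicle and 100.5, 54.1 and 59.4 CPM in EPO. Its log2 fold change of 0.39 ± 0.23 SE (edgeR adjusted p = 0.267) came to 0.05 without EPO 1. The log2 ratio of Srebf1 to Srebf2 differed by -0.18 between groups, less than its SD of 0.66 in Vehicle and 0.71 in EPO (n = 3 each, exact permutation test, two-sided, p = 0.8, adjusted 0.8). RNA levels say nothing of how much SREBP protein was cut.

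The 4 genes of uptake and transport had positive log2 fold changes with a median of 0.52, and Npc1 was called higher. Npc1 (ENSMUSG00000024413, chr18:12189692-12236400, minus strand), the membrane protein that moves cholesterol out of lysosomes, was at 50.6, 50.3 and 47.0 CPM in Vehicle and 128, 90.2 and 71.9 CPM in EPO. Vehicle was tight at 49.3 ± 1.99 CPM and EPO wide at 96.6 ± 28.5 CPM (SD, n = 3 each), with no overlap, and the rise was 1.96-fold (log2 fold change 0.97 ± 0.21 SE, edgeR adjusted p = 0.0159). Npc1 stayed called without EPO 1, its highest library (log2 fold change 0.71, edgeR adjusted p = 0.0100), and the call was lost without Vehicle 1 (0.0642), Vehicle 2 (0.0560) or Vehicle 3 (0.0534). Rmc1, whose exons overlap Npc1 on the opposite strand, was level between groups (log2 fold change 0.02, edgeR adjusted p = 0.928).

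Npc2, the soluble lysosomal protein that hands cholesterol to NPC1, was at 283, 357 and 363 CPM in Vehicle and 672, 381 and 376 CPM in EPO. The groups did not overlap, but EPO 2 and EPO 3 lay just above the highest Vehicle library. Its log2 fold change was 0.51 ± 0.25 SE (edgeR adjusted p = 0.188) and fell to 0.17 without EPO 1 (0.431). Stard4, a cytosolic sterol carrier, was at 6.78, 7.08 and 9.25 CPM in Vehicle and 9.79, 12.1 and 11.6 CPM in EPO, all higher in EPO, and did not pass (log2 fold change 0.53 ± 0.19 SE, edgeR adjusted p = 0.0804). Mylip, the ligase that marks lipoprotein receptors for breakdown, was at 76.9, 107 and 92.6 CPM in Vehicle and 113, 121 and 105 CPM in EPO, with EPO 3 below Vehicle 2, so that the groups overlapped (log2 fold change 0.29 ± 0.15 SE, edgeR adjusted p = 0.204). The log2 ratio of Npc1 to Npc2 was -2.75 ± 0.24 in Vehicle and -2.29 ± 0.18 in EPO (SD, n = 3 each). The difference of 0.46 had an exact permutation p of 0.1, the smallest this design allows, and 0.3 after adjustment over 3 ratios.

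Per length, in CPM per kilobase of exon, the most abundant of the 27 genes in Vehicle were Npc2 at 61.5, Srebf1 at 49.3 and Mylip at 28.6, followed by Acat2 at 21.3, Insig2 at 20.1, Insig1 at 17.5 and Hmgcs1 at 15.7. The lowest were Lss at 1.30, Hsd17b7 at 0.793 and Fdps at 0.0983. Of the 26 pairs of neighbours in this order, 18 overlapped over their Vehicle libraries, so most neighbouring ranks do not differ beyond their spread. The other 8 pairs did not overlap: Srebf1 above Mylip, Hmgcs1 above Pmvk, Fdft1 above Scap, Scap above Mvk, Nsdhl above Npc1, Dhcr7 above Tm7sf2, Lss above Hsd17b7 and Hsd17b7 above Fdps. In EPO the order of the first 3 genes stayed the same. Acat2 moved from rank 4 to 8 at 10.2 CPM per kilobase, Fdft1 from 11 to 15 at 4.43, Ebp from 10 to 4 at 13.9 and Npc1 from 15 to 11 at 8.53.

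**Figure D3:**
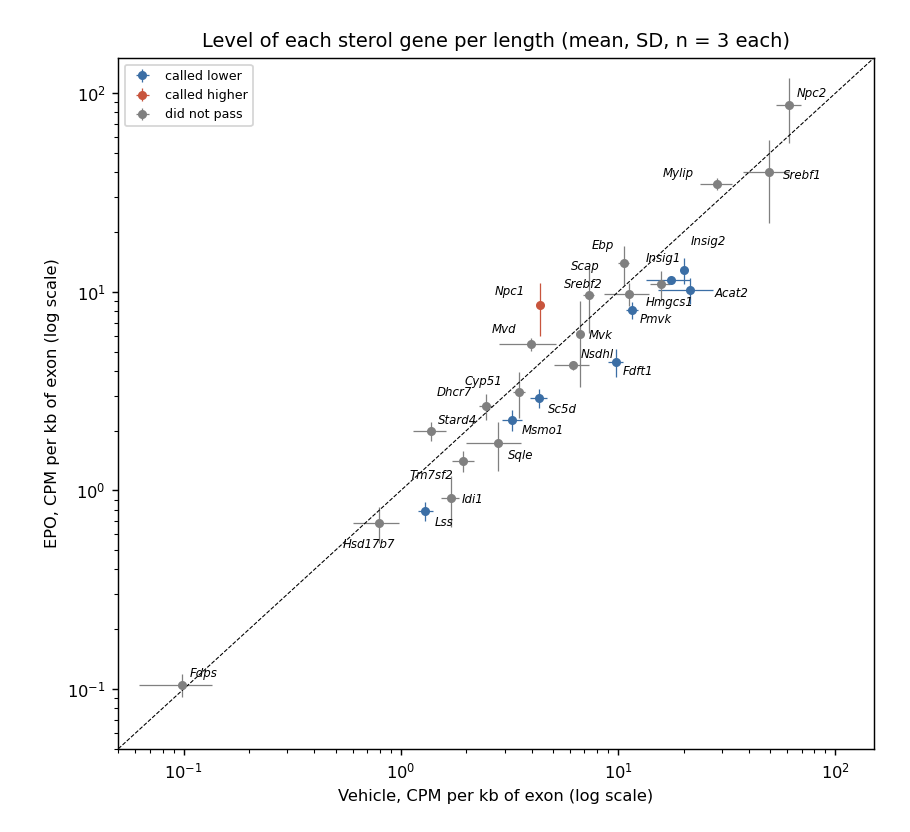
Mean level in EPO (vertical axis) against Vehicle (horizontal axis) for the 27 sterol genes, both in CPM per kilobase of exon on log scales, with bars of 1 SD over 3 libraries per group and a dashed line of equal levels. Points below the line are lower in EPO, as Acat2 (21.3 against 10.2) and Fdft1 (9.75 against 4.43), and Npc1 (4.36 against 8.53) lies above it.

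Other genes of sterol handling were taken from lists of function. Beside the counts of these lists and of the cell markers, 12.9% of all tested genes were called higher and 10.1% lower. Of the 4 further synthesis genes reported here 3 were tested, with 1 called lower, 0 called higher and a median of -0.33 for the log2 fold change. The gene called lower was Acat1, the mitochondrial thiolase of ketone and isoleucine metabolism, at 258, 301 and 163 CPM in Vehicle and 129, 124 and 115 CPM in EPO. The groups of Acat1 did not overlap (log2 fold change -0.97 ± 0.22 SE, edgeR adjusted p = 0.0207). Ggps1, which makes geranylgeranyl diphosphate for protein prenylation (log2 fold change -0.33, edgeR adjusted p = 0.280), and Lbr, a sterol reductase of the inner nuclear membrane (0.13, 0.600), did not pass.

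Of 10 further genes of SREBP processing and sterol-driven protein breakdown, Erlin1 was called higher and 0 lower, with a median of 0.18. Erlin1, a membrane protein of the endoplasmic reticulum that takes part in protein breakdown there, was at 13.9, 19.3 and 18.3 CPM in Vehicle and 23.3, 27.1 and 28.0 CPM in EPO, without overlap (log2 fold change 0.61, edgeR adjusted p = 0.0346). Of 15 genes of lipoprotein uptake, esterification and sterol transfer, 4 were called higher and 1 lower, with a median of 0.56. Those called higher were Gramd1a, a carrier of plasma membrane cholesterol (log2 fold change 0.59, edgeR adjusted p = 0.0147), Soat1, which esterifies cholesterol for storage (0.69, 0.0148), the lipoprotein receptor Scarb1 (0.64, 0.0163) and the lysosomal lipase Lipa (0.56, 0.0287). Vldlr, a receptor for triglyceride-rich lipoproteins, was at 92.9, 115 and 78.9 CPM in Vehicle and 32.3, 35.8 and 34.5 CPM in EPO, the lowest value of this list (log2 fold change -1.48, edgeR adjusted p = 0.00231).

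Of 8 genes of oxysterols and their receptor LXR, 2 were called higher and 1 lower, with a median of 0.54. Cyp7b1, an oxysterol hydroxylase, was at 1.26, 1.63 and 2.17 CPM in Vehicle and 6.36, 6.65 and 7.30 CPM in EPO (log2 fold change 2.0, edgeR adjusted p = 0.00332). Ch25h, which makes 25-hydroxycholesterol, was higher (1.14, edgeR adjusted p = 0.0433) and Cyp27a1, which makes 27-hydroxycholesterol, lower (-0.64, 0.0432). The cholesterol exporter Abca1 did not pass (1.23, edgeR adjusted p = 0.0748). Of 13 fatty acid genes known as SREBP-1 targets, 4 were called lower and 0 higher, with a median of -0.94: Fads2 (log2 fold change -1.0, edgeR adjusted p = 0.00262), Acss2 (-1.13, 0.00795), Me1 (-1.20, 0.0189) and Thrsp (-1.64, 0.0366). Vldlr, Cyp7b1, Fads2 and Acss2 stayed called whichever single library was left out. Ch25h lost its call on leaving out any 1 library (edgeR adjusted p up to 0.115), and Cyp27a1 (up to 0.124) and Erlin1 (up to 0.126) lost theirs without any 1 of Vehicle 1, Vehicle 2, Vehicle 3, EPO 2 or EPO 3. Lipa lost its call without the same libraries (up to 0.136), and Acat1 (up to 0.0726) and Thrsp (up to 0.0968) without Vehicle 1, Vehicle 2, EPO 2 or EPO 3. Gramd1a and Soat1 lost theirs without Vehicle 1 or Vehicle 2 (up to 0.0822 and 0.0697), Scarb1 without Vehicle 1 or Vehicle 3 (up to 0.0736) and Me1 without Vehicle 1 or EPO 2 (up to 0.0570).

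Markers of several cell types moved between the same groups. In bulk tissue, fewer cells of a type and less RNA per cell cannot be told apart. The summed level of 8 smooth muscle markers, led by Acta2 and Tagln, ran from 20050 to 28540 CPM in Vehicle and from 7230 to 9336 CPM in EPO, and 8 of 8 were called lower. The 8 white adipocyte markers, led by Fabp4 and Pck1, summed to 4176, 6405 and 2461 CPM in Vehicle and 1829, 1692 and 1733 CPM in EPO. Of these 8, 5 were called lower: Adipoq, Plin1, Cidec, Retn and Pck1. Macrophage markers, led by Lyz2 and Csf1r, summed to 1350, 2637 and 2766 CPM in Vehicle and 5728, 3373 and 3013 CPM in EPO, with Adgre1 alone of 8 called higher. Fibroblast markers, led by Col1a1 and Col1a2, ran from 10916 to 13083 CPM in Vehicle and from 44482 to 55584 CPM in EPO. Most of this sum was collagen, with Vehicle and EPO means of 3444 and 25745 CPM for Col1a1 and 3920 and 16566 CPM for Col1a2. Of the 8 fibroblast markers, 4 were called higher: Col1a1, Col1a2, Lum and Postn. Dcn (log2 fold change -0.13, edgeR adjusted p = 0.589) and Pi16 (-0.28, 0.439) had negative values that did not pass, beside 6 positive ones. All EPO libraries of Dcn lay below Vehicle.

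Endothelial markers, led by Pecam1 and Vwf, summed to 1375 to 1508 CPM in Vehicle and 1081 to 1643 CPM in EPO, with 3 of 8 called higher and 1 lower. Brown adipocyte markers, led by Ucp1 and Cox8b, ran from 615 to 1996 CPM in Vehicle and from 389 to 845 CPM in EPO, with Cidea and Dio2 of 6 called lower. Skeletal muscle markers, led by Acta1 and Myh2, ran from 6.84 to 14.8 CPM in Vehicle and stood at 1052, 2609 and 298 CPM in EPO, with 8 of 8 called higher. Markers of dividing cells, with Mki67 and Top2a, ran from 22.4 to 40.2 CPM in Vehicle and from 179 to 226 CPM in EPO, again with 8 of 8 called higher. Of 6 hepatocyte markers, 5 were too low to be tested (Alb, Apoa1, Ttr, Serpina1a and Fgb) and Cyp2e1 was called lower.

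The part of these shifts in cell markers in the sterol gene differences was not tested. Summed over their members, the mevalonate genes stood at 190, 186 and 158 CPM in Vehicle and 123, 116 and 121 CPM in EPO, a mean 1.48 times higher in Vehicle. Most of this sum was Hmgcs1 and Acat2, with Vehicle means of 72.0 and 54.2 CPM of 178. Mvd and Fdps of this group had positive log2 fold changes that did not pass. The squalene genes stood at 202, 188 and 198 CPM in Vehicle and 150, 136 and 158 CPM in EPO, a mean 1.32 times higher in Vehicle, beside 3.00 times for smooth muscle and 2.48 times for white adipocyte markers.

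**Figure D4:**
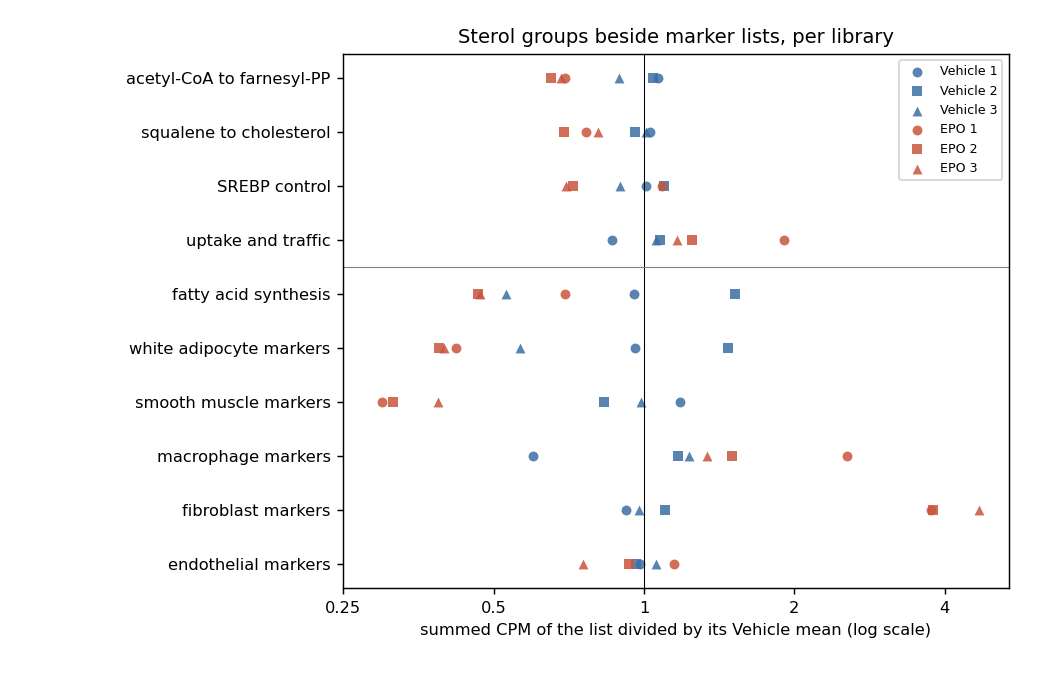
Summed CPM of each gene list in each library divided by the list's Vehicle mean (horizontal axis, log scale), for the 4 sterol groups, the fatty acid genes and the cell marker lists (vertical axis), with 3 Vehicle points in blue and 3 EPO points in red per list. Both synthesis groups lie below 1 in all 3 EPO libraries, as do smooth muscle and white adipocyte markers. The EPO points of the sterol uptake and transport, macrophage and fibroblast lists lie above 1. In Vehicle, Npc2, which did not pass, made up 334 of the 484 CPM of the uptake and transport sum (means).

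Across 14 alternative settings, the direction of the called genes held in each case while most calls depended on single libraries. Of the 9 called genes, 8 lost the call in at least 1 setting, and of the other genes, 5 passed in at least 1: Hmgcs1, Idi1, Nsdhl, Mvk and Ebp. Leaving out 1 Vehicle library left 1 to 5 of the 27 genes called lower. The share called lower was 18.5% of the 27 genes against 7.31% of all tested genes without Vehicle 3, 29.6% against 11.9% without EPO 1 and 18.5% against 6.86% without EPO 3, and without each of the other 3 libraries it lay near that of all genes, as given with the counts of calls. Of the 14 settings, 1 leaves EPO 3 as the only EPO library.

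**Figure D5:**
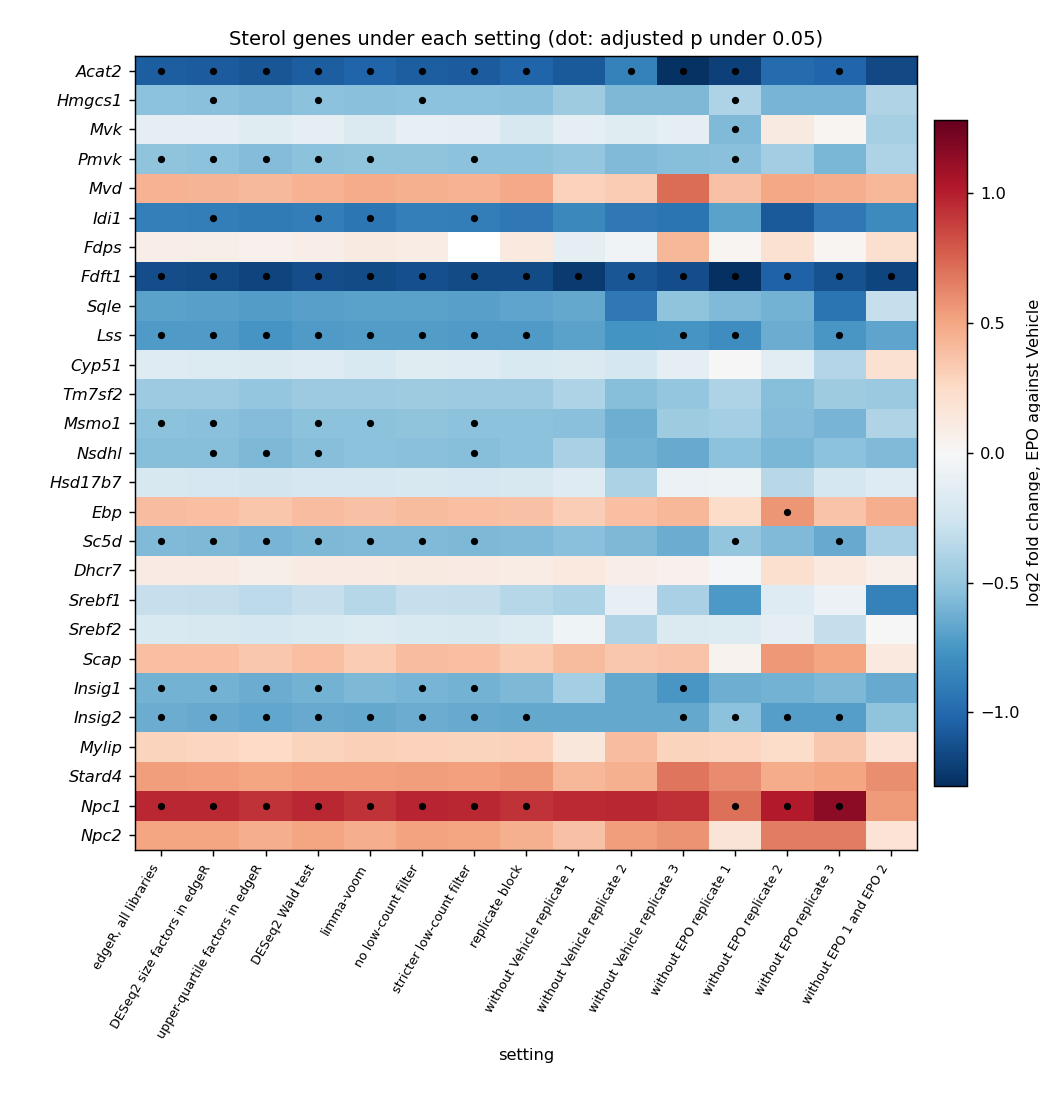
Log2 fold change of EPO against Vehicle (colour scale) for the 27 sterol genes (rows) in the edgeR fit with all libraries and in 14 alternative settings (columns), with a dot where the adjusted p was under 0.05; a blank cell is a gene not tested. Fdft1 carries a dot in every column and stays blue, and Npc1 stays red with dots in 11 of the 15 columns.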

How the data were processed

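RNA was measured in 6 libraries of mouse aorta, 3 per group. They were sequenced as paired ends after a kit for which no strand marking is named, per the labels' protocols. The submitters' processing notes name CASAVA 1.8 for base calling, TopHat2 2.0.6 for alignment and mm10 as the build. Counting tool, strand setting and annotation: not given in the sources used here. What the authors deposited are whole-number counts of reads per Ensembl gene, not normalized. No sample column was left unused (0 of them), and columns abbreviated Con were read as Vehicle. Symbols, coordinates and exon lengths came from GENCODE M21 (GRCm38), promoter windows from RefSeq (GRCm38.p6).

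In R 4.3.3, edgeR 4.0.16 removed low genes (filterByExpr), scaled by TMM and ran the two-sided quasi-likelihood test over all 16522 remaining genes, with Benjamini-Hochberg adjustment and a threshold of 0.05. CPM values are TMM-scaled, and log2 values for ratios and deviations used a prior count of 2. Shared sequence is the share of a gene's 50-base exon stretches found in another gene. In simulated data for this comparison (16310 genes), the test found 50 of 100 genes with a 2-fold change and 96 of 100 with a 4-fold change, and 7 of its 153 calls were false. No other genes were changed there, and those changed were drawn above a count floor. In the real data 23.0% of tested genes were called, so these rates need not carry over. Alternatives were DESeq2 1.42.0, its size factors, upper-quartile scaling, limma-voom (limma 3.58.1), no filter or 1 CPM in 3 libraries, the replicate number as a block, and libraries left out.

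The members and lists were chosen with earlier results of these data known. The text names all 27 members, up to 4 genes of smallest p per pathway list, up to 2 of highest level per marker list, and genes that complete a count of 5 or fewer. Genes overlapping or resembling a member were named for that overlap. Some further genes of these pathways are not reported here.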

Additional observations from a re-analysis of the deposited data

How the results depend on the processing

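With all libraries, 8 of the 27 genes were called lower and 1 higher, and the median of their log2 fold changes was -0.30. The genes called lower numbered 11 with DESeq2 size factors, 11 with the DESeq2 test, 10 with the stricter filter, 8 with upper-quartile scaling, 8 with limma-voom, 7 with no filter and 4 with the replicate block, with 1 higher in each. The block uses the replicate number, and the labels do not say whether libraries of the same number belong together. Same-numbered libraries of the groups correlated in their deviations at -0.0088, -0.0098 and 0.127, and Vehicle 1 correlated best with EPO 2 (0.120). With 3 libraries per group these values cannot decide whether the libraries were paired. The stricter filter removed Fdps, and the median over the other 26 genes was -0.39. Srebf1, the middle gene of the 27, stood at -0.30 with this filter as with the main one. The median of the 27 was -0.39 without both EPO 1 and EPO 2, and -0.41 to -0.35 with 1 library left out. Leaving out 1 library gave 1 to 8 called lower and 0 to 2 higher. Without both EPO 1 and EPO 2, where skeletal muscle markers were highest, 1 gene was called lower and 0 higher. That fit sets EPO 3 alone against the Vehicle libraries, takes its spread from Vehicle and assumes that EPO varies alike. The cause of the fewer calls was not tested. Over all genes, leaving out EPO 1 gave 2265 called higher and 2016 lower, against 2133 and 1671 with all libraries. Leaving out any other 1 library gave 936 to 1771 higher and 699 to 1245 lower.

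Signs turned only for values that did not pass with all libraries. Without both EPO 1 and EPO 2 the log2 fold change was 0.19 for Cyp51 and 0.00036 for Srebf2. With 1 library left out it ran from -0.56 to 0.11 for Mvk, -0.11 to 0.43 for Fdps and -0.0237 to 0.20 for Dhcr7. The group difference ran from -0.55 to 0.20 for the log2 ratio Srebf1 to Srebf2 and from -0.0777 to 0.23 for the log2 ratio Insig1 to Insig2.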
